A study of Homo sapiens with 12 samples.

Results

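Collagen genes were followed across libraries labelled as 2 human embryonic stem cell lines, H9 and RUES-2, each in a naive and in a primed state. The members were all genes whose symbol has the form of COL, a number, A and a number, which gave 44 of the 23613 gene symbols used. By structure, 11 of them encode chains of fibrillar collagens, 6 encode the chains of type IV collagen of basement membranes, and 27 encode other collagens. Poly(A) RNA of manually picked colonies was sequenced in 12 libraries, 3 for each line and state, and levels are given as FPKM, fragments scaled to transcript length and to library size. The labels speak of biological replicates without saying that the cultures were separate, so the p-values cover only how these libraries vary, which may be technical variation. Naive H9 cells had passage numbers from 27 to 31 and primed H9 cells from 31 to 35. Libraries labelled naive RUES-2 came from passages 24 to 26 and those labelled primed RUES-2 from passages 30 to 33. Naive cells were given LIF (20 ng/mL), insulin (18 µg/mL), BSA (5 mg/mL), PD0325901 (1 µM), which inhibits MEK, and CHIR99021 (3 µM), which inhibits GSK3, in glucose-free DMEM/F12 and Neurobasal set to 5 mM glucose. They were passaged every 3 days, and the labels name no feeder layer for them. The study's title speaks of a transient inhibition of mTOR, whose agent and timing the labels do not give. Primed cells grew on mouse embryonic fibroblasts treated with mitomycin C, with 20% knockout serum replacement and 4 ng/mL bFGF. The primed cells were passaged with dispase every 6 to 7 days. Medium, passaging and the named feeder layer went with the state, so their effects cannot be told apart from it. Whether RNA of feeder cells entered the primed libraries was not tested.

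A collagen is made of 3 chains wound into a triple helix, and each chain comes from its own gene, so a gene family supplies many different trimers. Fibrillar collagens such as types I, II, III and V are trimmed outside the cell and pack into the fibrils of connective tissue and cartilage, and they are products of mesenchymal cells more than of epithelia. Type IV collagen forms the sheet under epithelia, including that of the early embryo, while the other types decorate fibrils, form beaded filaments or anchoring fibrils, or sit in the cell membrane. Folding needs hydroxylation of proline and lysine and the chaperone HSP47, and crosslinking needs lysyl oxidases.

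Estimated from the deposited confidence bounds, sequencing depth differed by 2.34-fold between the deepest and the shallowest library. From 12681 to 13592 genes reached 1 FPKM in a library. The pluripotency factor POU5F1 had 417, 439 and 452 FPKM in naive H9 and 956, 790.2 and 983 FPKM in primed H9 libraries. POU5F1 had 534, 588 and 458 FPKM in libraries labelled naive RUES-2 and 791, 666 and 880.3 FPKM in those labelled primed RUES-2. All libraries carried this defining marker of pluripotent cells, at a lower level in the naive state, and near-identical copies of POU5F1 in the genome make its values uncertain. A check of line identity found that 3 of the 12 libraries, all outside H9, differed from what their line label predicts. The line is therefore given below only as labelled. State and line cannot be told apart in a state comparison that uses these libraries. Without those 3 libraries the H9 comparison called the same numbers of collagen genes, 12 higher and 9 lower, and comparisons that use them could not be made. Replicate 3 of the libraries labelled naive RUES-2 also stood apart, with the highest value of its group for 30 of the 44 collagen genes. Naive H9 replicate 3, the deepest library by that estimate, had the highest value of its group for 25 of the 44. Values without the RUES-2 replicate are given for the sums, the counts of called genes and genes where it lay far above the other 2. For naive H9 replicate 3, only the counts and the calls lost without it are given.

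Stretches before the start sites of collagen genes are shown for members that moved together or in opposite directions, from RefSeq on GRCh38.p14, which held windows for 32 of the 44 genes. Capitals mark the GC box (GGGCGG) and the CCAAT box (CCAAT) on either strand; TATAAA was also searched, and the motifs do not overlap in the stretches shown. COL4A1 and COL4A2 are read in opposite directions from start sites 126 bases apart, and both were higher in naive cells under both line labels. The first 2 lines are stretches of 30 bases between these 2 start sites, at chr13:110307166-110307195 and chr13:110307207-110307236 on the plus strand. The next lines are COL4A5 at chrX:108439588-108439837 on the plus strand, whose start lies 379 bases from that of COL4A6, and the fibrillar gene COL5A1 at chr9:134641553-134641773 on the plus strand. The last is COL9A1 at chr6:70303085-70303334 on the minus strand, which was lower in naive cells.
COL4A1 and COL4A2, CCAAT box: cgggccgagctccCCAATttgttggcgctg
COL4A1 and COL4A2, GC box: ccggcggtgcgcGGGCGGcgcctcaaaggg
COL4A5: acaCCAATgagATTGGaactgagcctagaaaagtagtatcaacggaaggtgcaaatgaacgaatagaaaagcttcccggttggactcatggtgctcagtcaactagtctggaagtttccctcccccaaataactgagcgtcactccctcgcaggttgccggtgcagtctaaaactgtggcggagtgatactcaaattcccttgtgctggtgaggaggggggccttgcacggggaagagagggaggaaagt
COL5A1: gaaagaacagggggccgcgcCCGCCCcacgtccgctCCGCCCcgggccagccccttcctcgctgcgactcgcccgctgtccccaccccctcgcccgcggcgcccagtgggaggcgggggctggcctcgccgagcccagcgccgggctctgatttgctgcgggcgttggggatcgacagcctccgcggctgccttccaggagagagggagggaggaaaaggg
COL9A1: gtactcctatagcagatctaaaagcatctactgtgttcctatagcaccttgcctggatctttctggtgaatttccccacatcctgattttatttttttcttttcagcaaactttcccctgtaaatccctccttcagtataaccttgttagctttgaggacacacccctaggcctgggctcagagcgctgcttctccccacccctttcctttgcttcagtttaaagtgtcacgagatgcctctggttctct
The stretch of COL5A1 held 2 GC boxes, that of COL4A5 held 2 CCAAT boxes, and that of COL9A1 held none of these motifs. The windows of COL11A1, COL16A1 and COL23A1, lower in naive H9, each held a GC box. That of COL6A3, higher in naive H9, held none of the motifs. A link of motifs with direction was not tested. In the 250 bases before the start, a GC box stood in 17 of the 32 collagen windows (53.1%), against 42.2% of the windows of 27305 genes. A CCAAT box stood in 8 of the 32 (25%) against 33.1% of all windows, and TATAAA in 5 of the 32 (15.6%) against 11.2%. These matches describe letters and show no binding.

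Fibrillar genes took most of the higher summed collagen level of naive cells. The summed level of the 44 genes was 942 ± 222 FPKM in naive H9 and 411 ± 41.9 FPKM in primed H9 (SD, n = 3 each). It was 963 ± 513 FPKM in libraries labelled naive RUES-2 and 365 ± 34.0 FPKM in those labelled primed RUES-2. Fibrillar genes made up 42.9% to 47.2% of the sum in naive H9 libraries and 15.8% to 21.5% in primed H9 libraries. Their share was 37.0% to 61.2% in libraries labelled naive RUES-2 and 11.8% to 19.9% in those labelled primed RUES-2. Neither range overlapped that of its primed counterpart. The summed fibrillar level itself was 429 ± 116 FPKM in naive H9 and 73.7 ± 14.8 FPKM in primed H9, and 483 ± 403 and 58.3 ± 20.4 FPKM in the naive and primed libraries labelled RUES-2. Replicate 3 of the libraries labelled naive RUES-2 had a fibrillar sum of 946 FPKM, and the other 2 had 291 and 213 FPKM, a mean of 252 FPKM. Without it the sum of all 44 genes averaged 672 FPKM in the naive libraries of that label. Type IV genes kept a similar share, at 17.5% to 20.5% in naive H9 against 16.9% to 22.5% in primed H9. In the libraries labelled RUES-2 that share was 15.9% to 22.2% in the naive and 20.0% to 28.6% in the primed state, and these ranges overlapped too. In RNA of whole colonies, fewer cells of a type and less RNA per cell cannot be told apart.

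**Figure D1:**
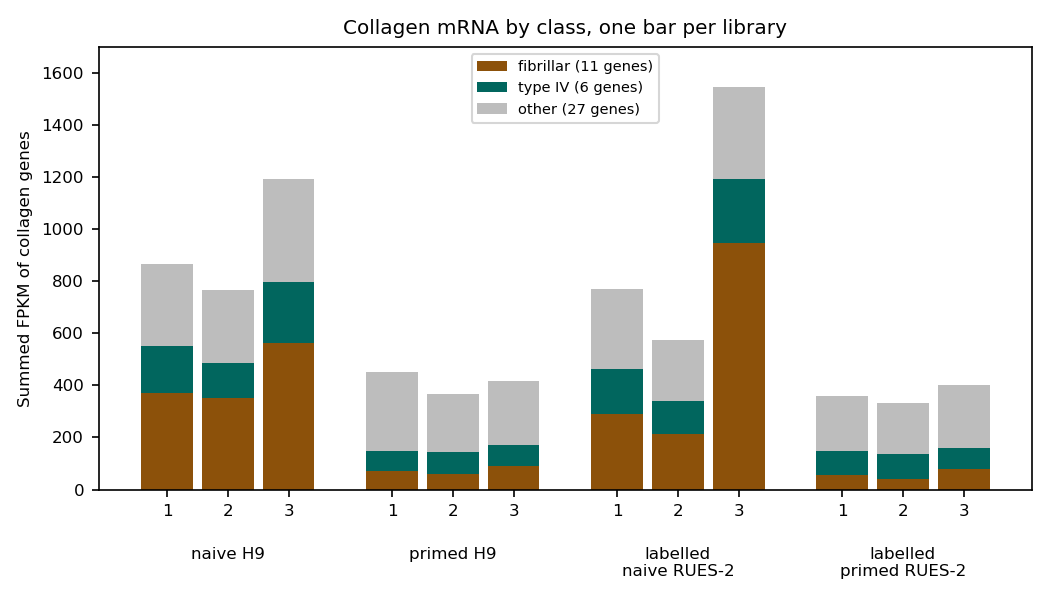
Summed FPKM of collagen genes in each library, stacked by class, with one bar per library and 3 libraries per group. The fibrillar part was between 213 and 946 FPKM in naive libraries of both line labels and between 39.4 and 89.4 FPKM in primed ones.

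Of the 44 genes, 30 reached 1 FPKM in at least 3 libraries and were tested: 8 fibrillar, 4 type IV and 18 other genes. COL15A1 passed with no primed library at 1 FPKM, and COL9A1, COL16A1 and COL22A1 passed with no naive library at that level. Their difference is therefore in part built into the filter. COL14A1, COL23A1 and COL25A1 passed with no naive H9 library at 1 FPKM and COL21A1 with no primed H9 library, which limits their comparisons likewise. In H9, 12 of the 30 were higher in naive cells, beside 20.4% of all 14428 genes tested, and 9 were lower, beside 23.9%, by limma at an adjusted p under 0.05. In libraries labelled RUES-2, 14 were higher, beside 23.1% of all genes, and 5 were lower, beside 23.6%. In either direction 21 of the 30 were called in H9 and 19 of the 30 under the RUES-2 label, beside 44.3% and 46.8% of all genes. The median log2 fold change of FPKM + 1 over the collagen genes tested was 0.40 in H9 and 0.54 in libraries labelled RUES-2, where the medians of all genes tested were -0.010 and 0.012. Fibrillar genes had medians of 2.04 and 2.03, with 5 higher and 1 lower in H9 and 5 higher and 0 lower in libraries labelled RUES-2. Type IV genes had medians of 0.97 and 0.76, with 3 higher and 0 lower under either label. The other collagens had medians of -0.33 and -0.10, with 4 higher and 8 lower in H9 and 6 higher and 5 lower in libraries labelled RUES-2. Across the 2 line labels, 10 genes were higher in both and 5 were lower in both. The shares of all genes called alike under both labels were not counted. Without replicate 3 of the libraries labelled naive RUES-2, 12 were higher and 5 lower under that label. Without naive H9 replicate 3, 9 were higher and 9 lower in H9.

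**Figure D2:**
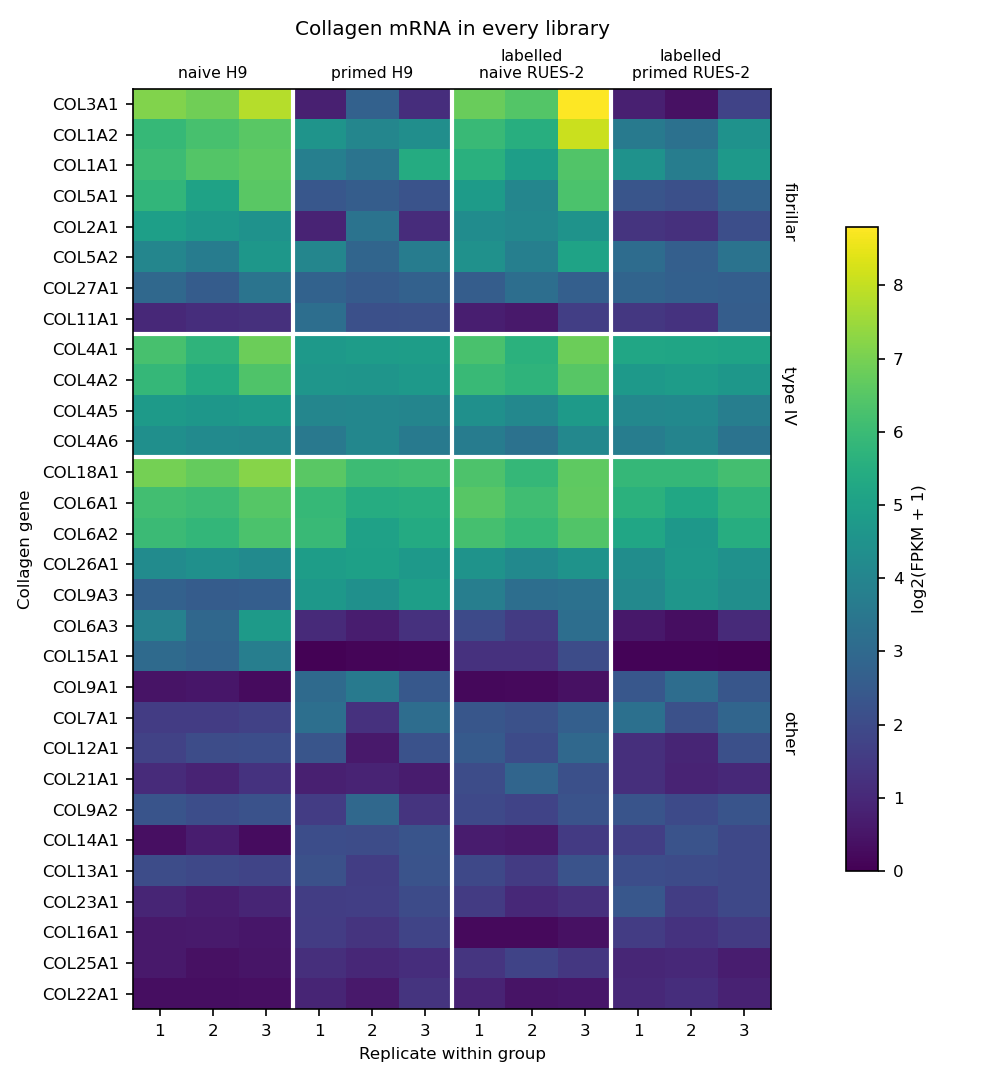
Level of each of the 30 collagen genes tested, as log2(FPKM + 1), in every library. Rows are genes by class, ordered by their highest group mean, and columns are the 3 replicates of each group. COL3A1 is bright in the 6 naive libraries and dark in the 6 primed ones, and COL9A1 shows the opposite.

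**Figure D3:**
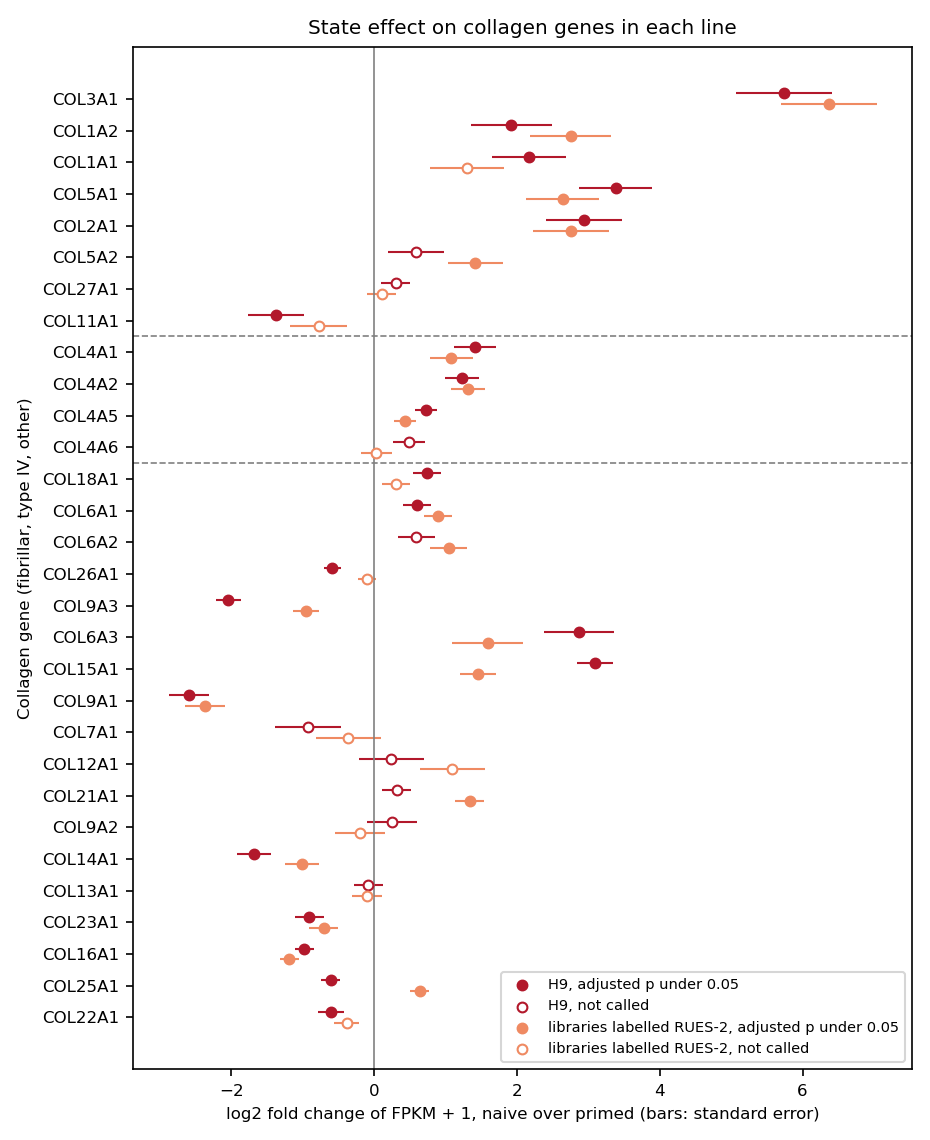
Log2 fold change of FPKM + 1, naive over primed, with its standard error from limma, for the 30 genes tested, in H9 and in libraries labelled RUES-2. Filled points have an adjusted p under 0.05. COL3A1 has the highest fold change under both labels and COL9A1 the lowest, and COL25A1 is the one gene called on opposite sides of 0.

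COL3A1 (chr2:189839099-189877472 on hg19) encodes the single chain of type III collagen, a fibrillar collagen of distensible tissues. It had 141, 117 and 225 FPKM in naive H9 and 0.694, 5.62 and 1.23 FPKM in primed H9 libraries. It had 109.5, 85.5 and 445 FPKM in libraries labelled naive RUES-2 and 0.706, 0.310 and 2.40 FPKM in those labelled primed RUES-2. Every naive library was above every primed one, and the lowest naive value was 85.5 FPKM. COL3A1 rose by 5.74 ± 0.67 on the log2 scale in H9 (SE, adjusted p = 9.62e-05), and its mean was 64.0-fold higher. COL3A1 rose by 6.37 ± 0.67 under the RUES-2 label (SE, adjusted p = 4.75e-05), and the difference between the labels did not pass the test (adjusted p = 0.752). Without replicate 3 of the libraries labelled naive RUES-2 the rise under that label was 5.64 ± 0.58 (adjusted p = 0.000113). The microRNA gene MIR1245B lies within the COL3A1 locus and reached 139.5 FPKM, and no source used here says how reads were divided between them. COL3A1 was 1.58 to 2.45 times COL1A2 in naive H9 libraries and 0.0309 to 0.364 times COL1A2 in primed H9 libraries, on the FPKM scale. In libraries labelled RUES-2 that ratio was 1.62 to 1.90 in the naive and 0.0357 to 0.112 in the primed state, so it too did not overlap between states.

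Type I collagen is built of 2 chains from COL1A1 and 1 chain from COL1A2 and is the main collagen of bone, skin and tendon. COL1A1 (chr17:48261457-48279000) had 65.0, 85.3 and 96.3 FPKM in naive H9 and 13.0, 9.43 and 41.3 FPKM in primed H9 libraries. It rose by 2.16 ± 0.52 on the log2 scale in H9 (adjusted p = 0.00706). Primed H9 replicate 3 lay apart from the other 2 primed H9 libraries. COL1A1 had 46.6, 29.3 and 83.9 FPKM in libraries labelled naive RUES-2 and 21.6, 12.2 and 26.3 FPKM in those labelled primed RUES-2. All 3 naive values were above the primed ones, but the fold change of 1.30 ± 0.52 did not pass the test (adjusted p = 0.0616). The difference between the labels did not pass either (adjusted p = 0.554). Under the RUES-2 label the state test of COL1A1 passed under 5 of 22 alternatives, with an adjusted p down to 0.00984. COL1A2 (chr7:94023873-94060544) had 59.0, 74.3 and 91.7 FPKM in naive H9 and 22.4, 15.4 and 19.1 FPKM in primed H9 libraries. It had 61.7, 44.9 and 276 FPKM in libraries labelled naive RUES-2 and 10.995, 8.67 and 21.5 FPKM in those labelled primed RUES-2. The groups did not overlap, and replicate 3 of the libraries labelled naive RUES-2 was far above the other 2. COL1A2 rose by 1.92 ± 0.57 on the log2 scale in H9 (adjusted p = 0.0196) and by 2.75 ± 0.57 under the RUES-2 label (adjusted p = 0.00281). COL1A2 rose under that label also without its naive replicate 3, by 1.96 ± 0.34 (adjusted p = 0.00171). Its H9 call was lost without naive H9 replicate 3 (adjusted p = 0.0635) and without primed H9 replicate 2 (0.0508).

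COL5A1 and COL5A2 encode chains of type V collagen, a minor fibrillar collagen that sets the diameter of type I fibrils. COL5A1 (chr9:137533652-137736688) had 54.0, 32.3 and 92.0 FPKM in naive H9 and 4.22, 5.03 and 3.78 FPKM in primed H9 libraries. It had 27.6, 15.6 and 77.8 FPKM in libraries labelled naive RUES-2 and 3.96, 3.47 and 5.99 FPKM in those labelled primed RUES-2. The primed values were close to each other while the naive ones spread widely, without overlap. COL5A1 rose by 3.38 ± 0.51 in H9 (adjusted p = 0.000483) and by 2.64 ± 0.51 under the RUES-2 label (adjusted p = 0.00193). The rise under that label was 2.02 ± 0.39 without its naive replicate 3 (adjusted p = 0.00329). COL5A2 had 15.3, 11.973 and 24.2 FPKM in naive H9 and 15.5, 6.36 and 12.013 FPKM in primed H9 libraries, which overlapped, with a fold change of 0.58 ± 0.39 (adjusted p = 0.245). COL5A2 had 20.9, 13.0 and 33.4 FPKM in libraries labelled naive RUES-2 and 7.59, 5.33 and 9.15 FPKM in those labelled primed RUES-2, a rise of 1.42 ± 0.39 (adjusted p = 0.0124). The test of the difference between the labels gave an adjusted p of 0.430. The ratio of the 2 chains differed between states without overlap: COL5A1 was 2.70 to 3.80 times COL5A2 in naive H9 and 0.272 to 0.791 times in primed H9 libraries. In libraries labelled RUES-2 the ratio was 1.20 to 2.33 in the naive and 0.521 to 0.655 in the primed state.

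COL2A1, the chain of type II collagen of cartilage and notochord, had 30.1, 24.8 and 21.6 FPKM in naive H9 and 0.838, 9.12 and 1.16 FPKM in primed H9 libraries. It had 18.4, 16.2 and 22.1 FPKM in libraries labelled naive RUES-2 and 1.49, 1.31 and 3.30 FPKM in those labelled primed RUES-2. The naive values were even and all above the primed ones, among which primed H9 replicate 2 was the highest. COL2A1 rose by 2.94 ± 0.53 in H9 (adjusted p = 0.00149) and by 2.76 ± 0.53 under the RUES-2 label (adjusted p = 0.00196). COL11A1, a chain of type XI collagen that joins type II in cartilage fibrils, moved the other way in H9. It had 1.03, 1.23 and 1.34 FPKM in naive H9 and 8.05, 3.47 and 3.59 FPKM in primed H9 libraries and fell by 1.38 on the log2 scale, with an SE of 0.39 and an adjusted p of 0.0168. That call was lost without naive H9 replicate 1 (adjusted p = 0.0515) and without primed H9 replicate 1 (0.0615). COL11A1 had 0.659, 0.504 and 2.11 FPKM in libraries labelled naive RUES-2 and 1.71, 1.42 and 4.98 FPKM in those labelled primed RUES-2, which overlapped (adjusted p = 0.130). COL27A1, a fibrillar collagen of growth plate cartilage, was at 6.85, 4.88 and 9.42 FPKM in naive H9 and 5.74, 4.71 and 5.69 FPKM in primed H9. It was at 5.05, 8.10 and 5.39 FPKM in libraries labelled naive RUES-2 and 6.16, 5.45 and 5.13 FPKM in those labelled primed RUES-2, and the groups overlapped (adjusted p = 0.262 and 0.706). The remaining fibrillar genes COL5A3, COL11A2 and COL24A1 stayed at or below 0.827 FPKM in all 12 libraries.

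**Figure D4:**
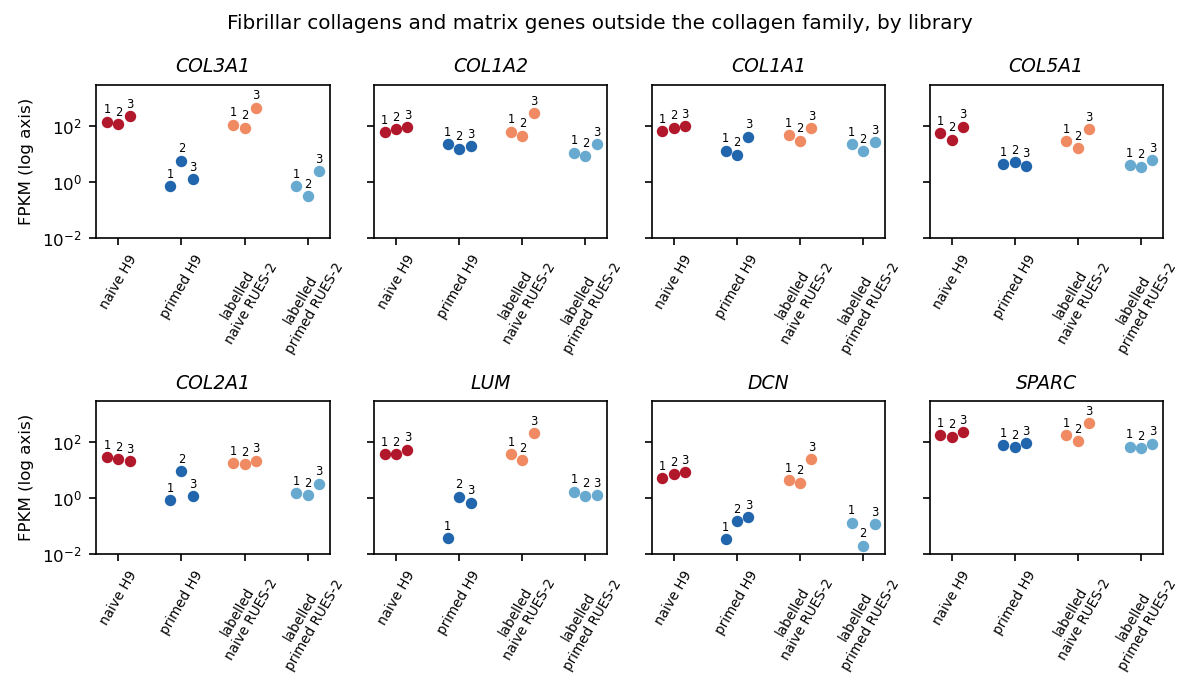
FPKM on a log axis of 5 fibrillar collagen genes and of the matrix genes LUM, DCN and SPARC in each library, numbered by replicate. Replicate 3 of the libraries labelled naive RUES-2 is the highest library for COL3A1, COL1A2, LUM, DCN and SPARC.

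Of 15 listed fibroblast markers 12 were tested, and 5 were higher and 0 lower in naive H9, while 5 were higher and 1 lower in libraries labelled naive RUES-2. Over all genes tested, 20.4% were higher and 23.9% lower in H9 and 23.1% and 23.6% under the RUES-2 label, which is also the background of each list below. The median log2 fold changes of those 12 were 0.61 and 0.68. Without replicate 3 of the libraries labelled naive RUES-2, 4 were higher and 1 lower under that label, with a median of 0.45. Among the 106 genes of these and the other lists that were tested, DCN, POSTN, ITGA11, GLT25D2, PECAM1, SOX5, PAX3 and ISL1 reached 1 FPKM in naive libraries alone. FOXD3, SOX10 and NGFR reached it in primed libraries alone, so the difference of these 11 genes is in part built into the filter. LUM, which encodes the fibril-binding proteoglycan lumican, had 36.8, 38.0 and 54.3 FPKM in naive H9 and 0.0369, 1.14 and 0.696 FPKM in primed H9 libraries. LUM had 38.6, 22.6 and 207 FPKM in libraries labelled naive RUES-2 and 1.70, 1.23 and 1.31 FPKM in those labelled primed RUES-2. LUM rose by 4.80 ± 0.63 in H9 (adjusted p = 0.000214) and by 4.59 ± 0.63 under the RUES-2 label (adjusted p = 0.000252). DCN, for the related proteoglycan decorin, had 5.27, 7.41 and 8.34 FPKM in naive H9 and 0.0338, 0.155 and 0.213 FPKM in primed H9 libraries. It had 4.42, 3.64 and 25.3 FPKM in libraries labelled naive RUES-2 and 0.133, 0.0202 and 0.120 FPKM in those labelled primed RUES-2. DCN rose by 2.80 ± 0.52 and 3.00 ± 0.52, and POSTN, for the matrix protein periostin, rose by 1.68 ± 0.28 and 1.69 ± 0.28, in H9 and under the RUES-2 label. LUM rose by 3.67 ± 0.32 and DCN by 2.20 ± 0.17 under the RUES-2 label without its naive replicate 3. The 1 marker called lower was S100A4, by 1.43 under the RUES-2 label (adjusted p = 0.0143). TWIST2, not called, had 0.846, 1.19 and 1.01 FPKM in naive H9 and 6.34, 1.13 and 40.4 FPKM in primed H9 libraries. Its means were 2.11 and 6.31 FPKM in the naive and primed libraries labelled RUES-2. PRRX1, not called either, had 6.785 FPKM in primed H9 replicate 3 and at most 0.8745 FPKM in the other H9 libraries. COL1A1 lay apart in that library too. Under the RUES-2 label PRRX1 had 1.244 to 1.729 FPKM in naive and 0.5898 to 1.094 FPKM in primed libraries. The summed FPKM of the 15 markers was 154 to 205 in naive H9 and 89.5 to 122 in primed H9 libraries. It was 106 to 377 in libraries labelled naive RUES-2 and 83.3 to 105 in those labelled primed RUES-2, and 377 FPKM was in replicate 3. A large part of these sums was FBLN1, with means of 95.9 and 60.55 FPKM in naive and primed H9. Its means were 81.6 and 62.9 FPKM in the naive and primed libraries labelled RUES-2. The part of these fibroblast markers in the collagen result was not tested.

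Of the 6 type IV collagen genes 4 were tested, and 3 were higher in naive cells under either label. COL4A1 (chr13:110801310-110959496) and COL4A2 (chr13:110959631-111165373) encode the 2 chains of the most widespread type IV trimer. COL4A1 had 74.1, 51.7 and 112 FPKM in naive H9 and 26.2, 28.2 and 28.5 FPKM in primed H9 libraries. It had 76.7, 48.5 and 113 FPKM in libraries labelled naive RUES-2 and 36.3, 35.2 and 33.3 FPKM in those labelled primed RUES-2. The primed libraries lay close together and all below the naive ones. COL4A1 rose by 1.42 ± 0.30 in H9 (adjusted p = 0.00345) and by 1.08 ± 0.30 under the RUES-2 label (adjusted p = 0.0130). COL4A1 rose by 0.79 ± 0.28 without naive replicate 3 of that label (adjusted p = 0.0458). COL4A2 had 56.7, 40.4 and 82.4 FPKM in naive H9 and 23.7, 22.8 and 25.4 FPKM in primed H9 libraries. It had 61.3, 52.1 and 89.4 FPKM in libraries labelled naive RUES-2 and 25.3, 28.1 and 24.3 FPKM in those labelled primed RUES-2. Again no groups overlapped between states, with rises of 1.23 ± 0.24 (adjusted p = 0.00226) and 1.32 ± 0.24 (adjusted p = 0.00136). COL4A1 was 0.932 to 1.43 times COL4A2 over all 12 libraries. Beside it, COL6A1 was 0.962 to 1.47 times COL6A2, and COL4A5 was 0.996 to 1.82 times COL4A6. The part of the start regions in these ratios was not tested. An antisense gene at the COL4A2 locus, COL4A2-AS1, reached 12.3 FPKM, and since no source used here states whether the libraries kept strand, its reads and those of COL4A2 cannot be told apart.

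COL4A5 and COL4A6 lie in opposite directions on the X chromosome and encode chains found in the basement membranes of kidney, smooth muscle and skin. COL4A5 (chrX:107683074-107940775) had 27.0, 24.3 and 26.7 FPKM in naive H9 and 15.4, 15.8 and 15.0 FPKM in primed H9 libraries, a rise of 0.72 ± 0.15 (adjusted p = 0.00393). It had 20.6, 16.4 and 26.9 FPKM in libraries labelled naive RUES-2 and 16.1, 17.0 and 12.7 FPKM in those labelled primed RUES-2. These groups overlapped, and the rise of 0.44 ± 0.15 (adjusted p = 0.0399) was lost under 11 alternatives, among them leaving out replicate 3 of the libraries labelled naive RUES-2 (0.136). COL4A6 had 19.8, 17.4 and 16.3 FPKM in naive H9 and 10.7, 15.9 and 11.2 FPKM in primed H9 libraries, with a fold change of 0.49 ± 0.22 that did not pass the test (adjusted p = 0.0933). COL4A6 had 11.996, 9.02 and 16.2 FPKM in libraries labelled naive RUES-2 and 12.2, 14.6 and 9.23 FPKM in those labelled primed RUES-2, which overlapped. COL4A3 and COL4A4, whose chains form the mature basement membrane of the kidney filter, stayed at or below 0.640 FPKM in all libraries. Both were highest in libraries labelled primed RUES-2, where COL4A3 had 0.639, 0.330 and 0.260 FPKM against 0.0447, 0.0498 and 0.190 FPKM in primed H9, and at these levels they were not tested.

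**Figure D5:**
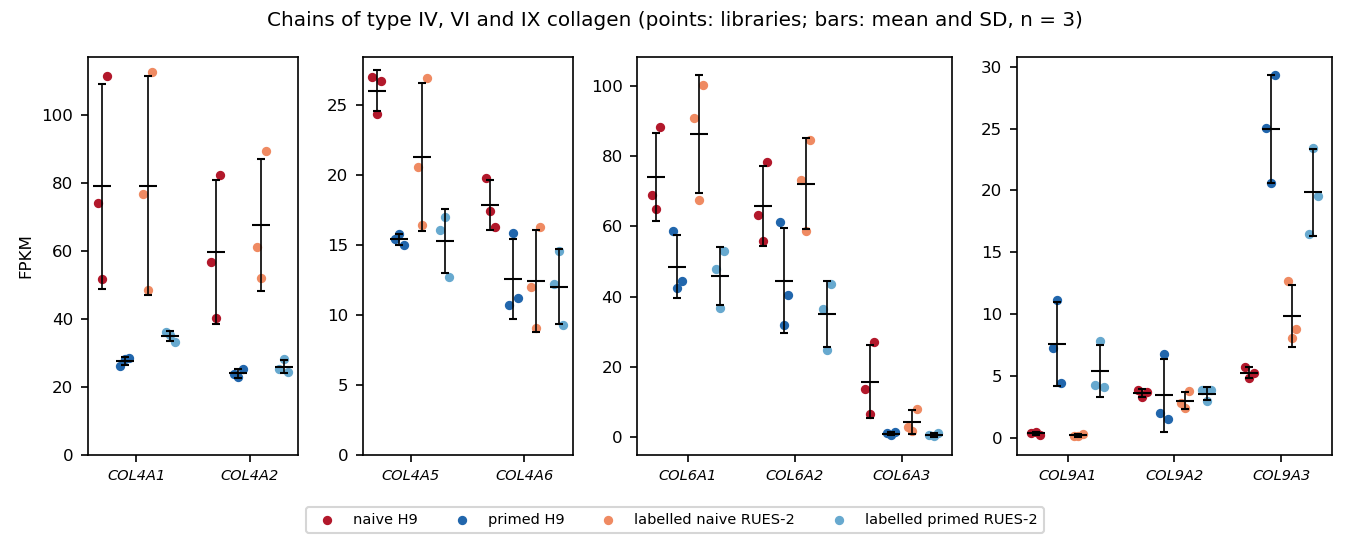
FPKM of the chains of type IV, type VI and type IX collagen, with a point per library and the mean and SD of 3 libraries. COL4A1 and COL4A2 are higher in naive than in primed libraries, and COL9A1 and COL9A3 are lower.

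Of 8 listed basement membrane genes outside the collagen family, all tested, 3 were higher and 2 lower in naive H9, and 4 were higher and 3 lower in libraries labelled naive RUES-2, with medians of -0.17 and 0.059. NID2, for nidogen 2, which links laminin to type IV collagen, had 14.9, 4.54 and 27.6 FPKM in naive H9 and 0.830, 2.41 and 1.20 FPKM in primed H9 libraries. It rose by 2.50 ± 0.57 in H9 and by 2.09 ± 0.57 under the RUES-2 label (adjusted p = 0.00549 and 0.0127). LAMC1, for the laminin gamma 1 chain, rose by 0.80 ± 0.11 and 0.83 ± 0.11. HSPG2, for perlecan, fell by 1.31 in H9 and by 0.94 under the RUES-2 label (adjusted p = 0.00104 and 0.00611), and AGRN, for agrin, fell by 0.98 and 0.48. LAMA5, a laminin alpha chain, fell by 0.47 under the RUES-2 label (adjusted p = 0.0406). Of 12 tested markers of primitive and parietal endoderm, which lays down much basement membrane in the embryo, 5 were higher and 1 lower in naive H9, and 7 higher and 1 lower under the RUES-2 label. Beside these stand the 20.4% higher and 23.9% lower of all genes in H9 and 23.1% and 23.6% under the RUES-2 label. Without replicate 3 of the libraries labelled naive RUES-2, 5 were higher and 1 lower under that label. That list shares NID2, LAMA1 and SPARC with the matrix lists and PDGFRA with the fibroblast list. GATA4 had 8.94, 5.69 and 12.3 FPKM in naive H9 and 0.815, 1.41 and 1.21 FPKM in primed H9 libraries. It had 11.3, 6.40 and 10.8 FPKM in libraries labelled naive RUES-2 and 3.91, 4.20 and 3.07 FPKM in those labelled primed RUES-2. SOX17 fell by 0.69 in H9 and rose by 0.79 ± 0.24 under the RUES-2 label, and TTR fell by 1.69 under that label. The summed FPKM of the 14 endoderm markers was 194 to 318 in naive H9 and 109 to 124 in primed H9 libraries. It was 211 to 613 and 155 to 184 in the naive and primed libraries labelled RUES-2. Much of these sums was the matrix gene SPARC, with 179, 158 and 231 FPKM in naive H9 and 80.2, 67.35 and 93.3 FPKM in primed H9 libraries. Under the RUES-2 label SPARC had 185, 113 and 483 FPKM in the naive and 70.35, 60.5 and 90.0 FPKM in the primed libraries. APOA1 of the same list also weighed in these sums under that label. It had 124, 52.6 and 62.6 FPKM in the naive and 81.5, 48.9 and 31.6 FPKM in the primed libraries. The part of these markers in the type IV result was not tested.

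The multiplexins COL15A1 and COL18A1 encode collagens of basement membrane zones, and a fragment of COL18A1 is endostatin. COL15A1 (chr9:101706138-101833068) had 7.15, 6.18 and 12.8 FPKM in naive H9 and 0.0417, 0.0987 and 0.120 FPKM in primed H9 libraries. It had 1.40, 1.41 and 3.15 FPKM in libraries labelled naive RUES-2 and 0.0682, 0.0663 and 0.0248 FPKM in those labelled primed RUES-2. It was close to 0 in every primed library and present in every naive one, at a higher level in H9. COL15A1 rose by 3.10 ± 0.25 in H9 (adjusted p = 1.03e-05) and by 1.46 ± 0.25 under the RUES-2 label (adjusted p = 0.00105). COL18A1 (chr21:46825097-46933634) had the highest FPKM of the 44 genes in each of the 6 primed libraries, where COL3A1 had it in each of the 6 naive ones. It had 123, 106 and 146 FPKM in naive H9 and 91.7, 64.7 and 67.2 FPKM in primed H9 libraries, which did not overlap. COL18A1 rose by 0.74 ± 0.20 in H9 (adjusted p = 0.0123), a call that was lost without naive H9 replicate 3 (0.0503). It had 79.5, 57.8 and 96.3 FPKM in libraries labelled naive RUES-2 and 57.4, 57.2 and 70.7 FPKM in those labelled primed RUES-2, which overlapped (adjusted p = 0.232). The test of the difference between the labels gave an adjusted p of 0.422 for COL18A1. Antisense genes at its locus reached at most 0.203 FPKM.

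Type VI collagen forms beaded filaments from chains of COL6A1, COL6A2 and COL6A3. COL6A1 had 68.8, 64.8 and 88.3 FPKM in naive H9 and 58.8, 42.6 and 44.3 FPKM in primed H9 libraries, a rise of 0.60 ± 0.19 (adjusted p = 0.0284). That call was lost under 5 alternatives, with adjusted p of up to 0.106 without naive H9 replicate 3. COL6A1 had 91.0, 67.6 and 100.2 FPKM in libraries labelled naive RUES-2 and 47.9, 36.7 and 52.8 FPKM in those labelled primed RUES-2, a rise of 0.89 ± 0.19 (adjusted p = 0.00363). COL6A2 had 63.2, 56.0 and 78.2 FPKM in naive H9 and 61.1, 31.9 and 40.6 FPKM in primed H9 libraries, which overlapped (fold change 0.59 ± 0.26, adjusted p = 0.0873). It had 73.0, 58.8 and 84.6 FPKM in libraries labelled naive RUES-2 and 36.4, 24.9 and 43.5 FPKM in those labelled primed RUES-2, a rise of 1.04 ± 0.26 (adjusted p = 0.00742). COL6A3, the longest chain of the trimer, showed the widest differences of the 3. It had 13.6, 6.61 and 27.1 FPKM in naive H9 and 1.06, 0.622 and 1.40 FPKM in primed H9 libraries, a rise of 2.87 ± 0.49 (adjusted p = 0.00111). COL6A3 had 2.98, 1.85 and 8.13 FPKM in libraries labelled naive RUES-2 and 0.471, 0.241 and 1.09 FPKM in those labelled primed RUES-2. The rise of 1.59 ± 0.49 under the RUES-2 label (adjusted p = 0.0229) was lost without replicate 3 of the naive libraries (0.0828) and without replicate 1 or 2 of the primed ones (0.0616 and 0.0712). COL6A3 was 0.102 to 0.306 times COL6A1 in naive H9 and 0.0146 to 0.0317 times in primed H9 libraries. COL6A5 and COL6A6, further type VI chains, stayed at or below 0.477 FPKM.

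Among the FACIT collagens, which attach to the surface of fibrils, several fell. COL9A1, COL9A2 and COL9A3 encode the chains of type IX collagen, which coats type II fibrils of cartilage. COL9A1 (chr6:70925743-71012786) had 0.396, 0.449 and 0.207 FPKM in naive H9 and 7.26, 11.1 and 4.40 FPKM in primed H9 libraries. It had 0.130, 0.158 and 0.330 FPKM in libraries labelled naive RUES-2 and 4.28, 7.81 and 4.10 FPKM in those labelled primed RUES-2. Every naive library was at or below 0.449 FPKM, and its group mean was 21.7-fold lower in naive than in primed H9. COL9A1 fell by 2.60 in H9 (SE 0.28, adjusted p = 5.62e-05) and by 2.36 under the RUES-2 label (SE 0.28, adjusted p = 9.78e-05). COL9A3 had 5.73, 4.85 and 5.21 FPKM in naive H9 and 25.0, 20.6 and 29.3 FPKM in primed H9 libraries and fell by 2.04 (SE 0.18, adjusted p = 1.53e-05). It had 12.7, 8.04 and 8.82 FPKM in libraries labelled naive RUES-2 and 16.5, 23.5 and 19.5 FPKM in those labelled primed RUES-2 and fell by 0.95 (SE 0.18, adjusted p = 0.00163). The locus of COL9A3 overlaps that of TCFL5, which reached 8.69 FPKM. COL9A2 had 3.84, 3.26 and 3.71 FPKM in naive H9 and 1.99, 6.803 and 1.48 FPKM in primed H9 libraries, and its groups overlapped under both labels (adjusted p = 0.584 and 0.665).

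COL14A1, a FACIT collagen of type I fibrils, had 0.295, 0.620 and 0.236 FPKM in naive H9 and 3.21, 3.15 and 3.93 FPKM in primed H9 libraries, and fell by 1.69 (adjusted p = 0.000353). It had 0.578, 0.510 and 1.83 FPKM in libraries labelled naive RUES-2 and 2.08, 3.76 and 2.77 FPKM in those labelled primed RUES-2, and it fell by 1.01 (adjusted p = 0.00630). COL16A1 had 0.511, 0.544 and 0.433 FPKM in naive H9 and 1.95, 1.49 and 2.48 FPKM in primed H9 libraries. It had 0.168, 0.158 and 0.305 FPKM in libraries labelled naive RUES-2 and 1.98, 1.42 and 1.90 FPKM in those labelled primed RUES-2. No naive library reached the primed range, and COL16A1 fell by 0.98 in H9 and by 1.19 under the RUES-2 label (adjusted p = 0.000248 and 6.87e-05). COL21A1 rose by 1.33 ± 0.20 under the RUES-2 label (adjusted p = 0.000488), with 3.17, 6.39 and 3.39 FPKM in the naive and 1.27, 0.825 and 1.03 FPKM in the primed libraries. In H9 it had 1.12, 0.858 and 1.45 FPKM in naive and 0.711, 0.856 and 0.573 FPKM in primed libraries (adjusted p = 0.232), and the difference between the labels gave an adjusted p of 0.0698. COL22A1, of muscle and tendon junctions, fell by 0.60 in H9 (adjusted p = 0.0189), a call lost with quantile normalization (0.0524) and without naive H9 replicate 1 or 2 (0.0532 and 0.0509). COL12A1 was not called under either label (adjusted p = 0.701 and 0.0739), but it passed under 3 of 21 alternatives under the RUES-2 label. COL19A1 and COL20A1 stayed at or below 0.227 FPKM.

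Outside these groups, COL26A1 was among the more abundant members. It had 18.1, 20.2 and 17.6 FPKM in naive H9 and 28.6, 30.8 and 25.8 FPKM in primed H9 libraries and fell by 0.58 (SE 0.12, adjusted p = 0.00369). It had 21.8, 17.2 and 21.7 FPKM in libraries labelled naive RUES-2 and 19.1, 25.5 and 21.1 FPKM in those labelled primed RUES-2, which overlapped (adjusted p = 0.515). COL7A1, the collagen of anchoring fibrils below skin epithelium, had 1.99, 1.96 and 2.24 FPKM in naive H9 and 8.28, 1.40 and 7.89 FPKM in primed H9 libraries. It had 4.08, 3.56 and 5.34 FPKM in libraries labelled naive RUES-2 and 8.48, 3.51 and 6.28 FPKM in those labelled primed RUES-2. Primed H9 replicate 2 lay below the naive libraries while the other 2 lay above, and COL7A1 was not called (adjusted p = 0.124 and 0.544). Leaving out that library gave a fold change of -1.57 in H9 (adjusted p = 0.00128). Of the transmembrane collagens, COL23A1 fell by 0.91 in H9 and by 0.71 under the RUES-2 label (adjusted p = 0.00529 and 0.0170). The RUES-2 call of COL23A1 was lost without naive replicate 2 (0.0653) and without primed replicate 1 (0.0638) of that label. COL13A1 was not called (adjusted p = 0.773 and 0.714). COL25A1, a transmembrane collagen first known from amyloid plaques, had 0.510, 0.311 and 0.423 FPKM in naive H9 and 1.30, 0.981 and 1.21 FPKM in primed H9 libraries and fell by 0.61 (SE 0.14, adjusted p = 0.00468). It had 1.54, 2.42 and 1.69 FPKM in libraries labelled naive RUES-2 and 0.915, 1.02 and 0.613 FPKM in those labelled primed RUES-2 and rose by 0.64 ± 0.14 (adjusted p = 0.00342). Neither pair of groups overlapped. The 14 genes under the filter reached at most 1.29 FPKM, in COL8A1, and also held COL8A2 and COL10A1 of hexagonal networks, COL17A1 of hemidesmosomes and COL28A1.

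The test of the difference between the state effects under the 2 line labels, RUES-2 minus H9, called 2 of the 30 genes higher, beside 3.77% of all genes, and 1 lower, beside 1.93% (5.7% in either direction). COL25A1 had a difference of 1.25 ± 0.19 (adjusted p = 0.00581), COL9A3 of 1.09 ± 0.25 (adjusted p = 0.0340) and COL15A1 of -1.64 ± 0.36 (adjusted p = 0.0261). No fibrillar or type IV gene was called, with 0 of these 12 at an unadjusted p under 0.05. Libraries labelled primed RUES-2 against primed H9 gave 0 called genes in either direction, beside 1.34% higher and 0.471% lower (1.82% together) over all genes, and 1 gene at an unadjusted p under 0.05. That gene was COL26A1, with a log2 fold change of -0.37 ± 0.12 (adjusted p = 0.2003). Libraries labelled naive RUES-2 against naive H9 gave 3 genes higher, beside 11.2% of all genes, and 3 lower, beside 4.69% (15.9% in either direction). COL21A1, COL25A1 and COL9A3 were higher by 1.27 ± 0.20, 1.02 ± 0.14 and 0.77 ± 0.18 on the log2 scale. COL15A1, COL6A3 and COL18A1 were lower, with fold changes of -1.69 ± 0.25, -1.64 ± 0.49 and -0.69 ± 0.20. These comparisons share libraries with the state comparisons, and 3 of the 12 libraries did not match their line label.

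Genes that modify, fold and crosslink collagen were followed as lists. Of 19 listed genes of procollagen modification and folding 18 were tested, and 6 were higher and 1 lower in naive H9, while 7 were higher and 0 lower in libraries labelled naive RUES-2, with medians of 0.34 and 0.26. GLT25D1, which adds galactose to hydroxylysine, had 34.9, 31.9 and 40.1 FPKM in naive H9 and 19.4, 21.3 and 22.8 FPKM in primed H9 libraries. It rose by 0.72 ± 0.090 in H9 and by 1.04 ± 0.090 under the RUES-2 label (adjusted p = 0.000148 and 1.44e-05). PLOD2, the lysyl hydroxylase of telopeptides, rose by 1.07 ± 0.30 in H9 (adjusted p = 0.0158), and the isomerase FKBP14 rose by 0.74 ± 0.15 under the RUES-2 label (adjusted p = 0.00211). LEPREL2, a prolyl 3-hydroxylase, fell by 1.29 in H9 (adjusted p = 0.000185) and had a fold change of -0.11 ± 0.17 under the RUES-2 label, and this difference was called (adjusted p = 0.0189). SERPINH1, for the chaperone HSP47, had 227, 226 and 260.4 FPKM in naive H9 and 195, 202 and 178 FPKM in primed H9 libraries and was not called (adjusted p = 0.131 and 0.360).

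Of 19 listed genes of export, cleavage and crosslinking 16 were tested, with 9 higher and 3 lower in naive H9 and 4 higher and 3 lower in libraries labelled naive RUES-2, and medians of 0.54 and 0.24. LOX, which starts crosslinks by oxidising lysine, had 2.83, 3.35 and 3.45 FPKM in naive H9 and 0.454, 0.461 and 1.14 FPKM in primed H9 libraries. It had 5.03, 3.98 and 15.4 FPKM in libraries labelled naive RUES-2 and 0.640, 1.37 and 1.23 FPKM in those labelled primed RUES-2. LOX rose by 1.34 ± 0.37 and 1.94 ± 0.37 (adjusted p = 0.0148 and 0.00191), while its relative LOXL3 fell by 1.46 and 1.37. BMP1, the protease that removes the C-terminal propeptide, rose by 1.03 ± 0.32 and 1.38 ± 0.32 (adjusted p = 0.0244 and 0.00530). SPARC, a collagen-binding matrix protein, rose by 1.22 ± 0.42 and 1.56 ± 0.42 (adjusted p = 0.0367 and 0.0115). Under the RUES-2 label SPARC rose by 0.98 ± 0.25 without naive replicate 3 (adjusted p = 0.0125). The export genes MIA3 and SEC24D fell by 0.41 and 0.64 in H9 (adjusted p = 0.00241 and 0.0331), and ADAMTS2, which removes the N-terminal propeptide, fell by 0.86 under the RUES-2 label (adjusted p = 0.0201). PXDN, which crosslinks type IV collagen, rose by 0.40 ± 0.13 in H9 and fell by 0.47 under the RUES-2 label, a difference of -0.87 ± 0.18 (adjusted p = 0.0223).

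Of 8 collagen receptors tested, 2 were higher and 2 lower in naive H9, close to the shares over all genes, and 3 were higher and 2 lower in libraries labelled naive RUES-2. ITGA11, the integrin chain that binds fibrillar collagen on mesenchymal cells, had 7.80, 7.32 and 9.39 FPKM in naive H9 and 0.0917, 0.332 and 0.222 FPKM in primed H9 libraries, and rose by 2.91 ± 0.40 (adjusted p = 0.000262). Under the RUES-2 label it rose by 1.41 ± 0.40 (adjusted p = 0.0146). MRC2, which takes up collagen for degradation, rose by 0.66 ± 0.13 and 1.28 ± 0.13, and the receptor kinase DDR2 rose by 2.00 ± 0.39 under the RUES-2 label (adjusted p = 0.00193). DDR1, the receptor kinase of epithelia, fell by 1.53 in H9 and by 1.96 under the RUES-2 label, with 16.4, 20.7 and 14.4 FPKM in naive H9 and 50.6, 65.4 and 40.2 FPKM in primed H9 libraries. ITGA2 fell by 1.23 and 0.60. Of 8 tested turnover genes, 3 were higher and 0 lower under either label. These were the gelatinase MMP2, with rises of 1.91 ± 0.25 and 2.17 ± 0.25, and the protease inhibitors TIMP3 (1.34 ± 0.25 and 1.45 ± 0.25) and TIMP1 (0.96 ± 0.33 and 1.02 ± 0.33). MMP2 had 89.2, 94.4 and 99.2 FPKM in naive H9 and 28.3, 21.8 and 23.3 FPKM in primed H9 libraries.

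Other marker lists were read beside these results. Of 8 pluripotency markers, all tested, 0 were higher and 5 lower in naive H9, and 1 was higher and 7 lower in libraries labelled naive RUES-2, where NANOG rose by 2.49 ± 0.34. TDGF1, EPCAM, DPPA4 and SOX2 fell by 1.73, 1.36, 1.19 and 0.78 in H9 and by 1.49, 1.79, 1.09 and 1.44 under the RUES-2 label. Of 9 neural crest markers, 5 were higher and 3 lower in H9, and 4 higher and 3 lower under the RUES-2 label. MSX1 rose by 3.13 ± 0.58 and 2.80 ± 0.58, SNAI2 by 3.16 ± 0.51 and 2.42 ± 0.51, and TWIST1 by 1.37 ± 0.29 and 3.88 ± 0.29. FOXD3 fell by 2.92 and 2.20, and SOX10 and NGFR fell under both labels. Of 9 notochord and chondrocyte markers 4 were tested, and 4 were higher in naive H9 and 3 in libraries labelled naive RUES-2. T, for brachyury, had 13.0, 14.5 and 12.7 FPKM in naive H9 and 2.21, 0.910 and 0.146 FPKM in primed H9 libraries and rose by 2.91 ± 0.36 and 2.96 ± 0.36, and SOX9 rose by 0.79 ± 0.22 and 0.89 ± 0.22. SOX5 rose by 0.68 ± 0.13 and 0.54 ± 0.13, and HAPLN1 rose by 2.35 ± 0.63 in H9. ACAN, the defining proteoglycan of cartilage, was at or below 0.297 FPKM in every library. Of 9 endothelial markers 3 were tested, with 0 called in H9 and 2 higher under the RUES-2 label, where PECAM1 rose by 1.68 ± 0.31 and KDR by 1.09 ± 0.31, and CDH5 was at or below 0.264 FPKM throughout. Of 9 basal epithelial and amnion markers 4 were tested, with 1 higher and 1 lower under the RUES-2 label. ISL1 rose by 0.94 ± 0.20 and IGFBP3 fell by 1.49 under the RUES-2 label, and KRT5 was at or below 0.832 FPKM. The summed FPKM of notochord and chondrocyte markers was 24.0 to 36.0 in naive H9 and 2.48 to 9.50 in primed H9 libraries, and that of neural crest markers was 25.9 to 68.1 and 24.9 to 30.8. In libraries labelled naive RUES-2 these sums were 15.2 to 25.5 and 45.4 to 58.6 FPKM, and in those labelled primed RUES-2 they were 6.21 to 8.73 and 17.5 to 27.4 FPKM. The part of any of these lists in the collagen results was not tested.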

How the data were processed

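RNA-seq of poly(A)-enriched RNA gave 1 table per library. Per the file headers, the authors deposited FPKM per gene with confidence bounds and a status; the design text speaks of RPKM. The submitters' processing notes name TopHat2 2.1.1, bcl2fastq 2.17.1.14 and hg19; no source used here names the program behind the FPKM, its annotation or the strandedness. Of 25278 entries for 23615 symbols, symbols listed several times were represented by their highest locus. Member loci are given 1-based on hg19; start regions are RefSeq's on GRCh38.p14. The members and lists were chosen with earlier results of these data known.

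The test was limma's (limma 3.58.1, R 4.3.3), two-sided, for log2(FPKM + 1) of the 14428 genes that reached 1 FPKM in 3 or more libraries. It used a mean per group over 12 libraries, a variance trend and Benjamini-Hochberg adjustment over all genes. Fold changes on this scale understate changes of low genes. Depth is known only from the deposited bounds: read as counting error, they put the median gene between 1 and 2 FPKM at 47.5 to 112 fragments. Read counts were not recovered, since under 60 such fragments only 40.3% to 43.6% of values came within 0.05 of whole numbers. Named members had a group mean of at least 5 FPKM or a called log2 fold change of at least 1; lists name up to 4 called genes by mean change and those called the other way. The script was tested on simulated data. The H9 result of the basal epithelial and amnion list is not reported here. Alternatives changed the pseudocount, filter, scaling, variance model, replicate block, libraries and loci. Python 3.11.15, numpy 2.4.6, pandas 2.3.3 and matplotlib 3.10.9 were used.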

Additional observations from a re-analysis of the deposited data

Results flagged for a closer look

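For 3 collagen genes the state effect differed between the line labels, by limma's test of the difference itself, RUES-2 minus H9. COL25A1 had a difference of 1.25 on the log2 scale (adjusted p = 0.00581). It was lower in all 3 naive libraries than in all 3 primed ones in H9 and higher in all 3 under the RUES-2 label. COL25A1 is a low gene, at most 2.42 FPKM in any library, and no naive H9 library reached 1 FPKM. Its difference is therefore in part built into the filter. COL9A3 had a difference of 1.09 (adjusted p = 0.0340), being lower in naive cells under both labels and by more in H9. COL15A1 had a difference of -1.64 (adjusted p = 0.0261), being higher in naive cells under both labels and by more in H9. These 3 genes are among 30 tested, where 5.7% of all genes were called, and 3 libraries did not match their line label. The part of that mismatch in these differences was not tested and cannot be told apart from the state effect here.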

How the results depend on the processing

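No collagen gene changed direction after being called. Of the called genes, 16 of 21 in H9 and 16 of 19 under the RUES-2 label kept their call under every alternative that tested them. For the difference this held for 1 of 3, COL25A1. Of the uncalled genes, 5 of 9 in H9, 2 of 11 under the RUES-2 label and 1 of 27 for the difference gained a call under some alternative. Genes under the filter of 5 FPKM, among them COL25A1, were not tested with that filter. A filter of 5 FPKM left 3 lower genes in H9, 2 under the RUES-2 label, 1 higher and 0 lower for the difference, and 1 higher for naive RUES-2 against naive H9. Without a filter there were 10 lower genes under the RUES-2 label, 1 higher and 0 lower for the difference, 1 higher for primed RUES-2 against primed H9 and 5 higher for naive RUES-2 against naive H9. Quantile normalization gave 1 higher gene for the difference, and a pseudocount of 0.1 gave 0 lower; the cause was not tested. Leaving out 1 library at a time gave 9 to 13 higher and 7 to 10 lower genes in H9, 12 to 16 and 4 to 5 under the RUES-2 label, and 1 to 2 and 0 to 2 for the difference. For naive RUES-2 against naive H9 it gave 2 to 4 higher and 1 to 4 lower genes. The difference of COL9A3 lost its call under 11 alternatives and that of COL15A1 under 8. With the multiplexins counted among basement membrane collagens, that class had 5 of 6 tested genes higher in H9 and 4 of 6 under the RUES-2 label. A fit without the 3 libraries whose line did not match was added after seeing the data. Low genes are the least precise, since few fragments stand behind them.

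Replicate numbers showed little pairing of the libraries. Over 18 same-numbered pairs the correlation of deviations from group means ran from -0.054 to 0.14, and 2 pairs were over 0.1. Different-numbered pairs ran from -0.161 to 0.1145. Such correlations cannot exclude that a number marks a shared culture or batch. With the number as a replicate block, 14 genes were higher and 9 lower in H9, 15 and 5 under the RUES-2 label, and 1 and 1 for the difference.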
